A study of Mus musculus with 8 samples.

Results

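Igsf1 and 6 genes of thyroid hormone signalling were examined in mouse brain RNA: the transporter gene Slco1c1, the deiodinase gene Dio2, the receptor genes Thra and Thrb, and the hormone-responsive genes Hr and Klf9. The set was put together because Igsf1 was higher in every Akap11 conditional knockout (cKO) library than in every control library, and the other genes were added for their roles, so the group difference of Igsf1 is described here without a test. These 7 genes are among 57186 listed per library, and all 7 passed the low-count filter that left 16766 genes for testing. The tested animals are mice with a conditional knockout of AKAP11, an A-kinase anchoring protein gene, and they were set against control mice, with 4 libraries per group. The labels name brain without a region, and the series title places AKAP11 in autophagy, in protein kinase A (PKA) regulation and among bipolar and schizophrenia risk genes. No source used here gives the recombinase and its cell type, the deleted exons, the alleles carried by the controls, strain, age or litter. Whether the 8 libraries come from 8 different mice is not stated either. The p-values set group differences against the spread between libraries, and could be too small if libraries shared a mouse.

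Thyroid hormone enters the brain largely as the prohormone T4, which crosses the blood-brain barrier through membrane transporters. In glia T4 is turned into the active hormone T3 by the type 2 deiodinase. T3 binds nuclear receptors that sit on DNA with retinoid X receptors, where they recruit corepressors without hormone and coactivators with it. Igsf1 is an X-linked gene for a membrane glycoprotein of the immunoglobulin superfamily. Its loss causes central hypothyroidism in humans, and it is best known from the pituitary and hypothalamus.

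Reads in genes numbered from 13841218 to 19991942 per library. The share of all listed reads that lay in genes was 63.8% in cKO replicate 1 and 73.7% to 79.7% in the other libraries. Control replicate 1 held the outlying value of several genes named below. Levels are CPM, read counts scaled to library size and by TMM, a normalization that corrects for library composition. Akap11 itself was at 228 ± 12.7 CPM in cKO and 323 ± 35.3 CPM in control brain (SD, n = 4 each), a log2 difference of -0.50 with an SE of 0.069 and an adjusted p of 0.0103 in edgeR. The adjusted p was 0.0616 without control replicate 2 and 0.104 without cKO replicate 2. The counts cover the whole gene, so exons outside the deleted part and cells without the recombinase are included. By the same edgeR quasi-likelihood test, 0.0239% of all genes passed an adjusted p of 0.05, 0.0119% higher and 0.0119% lower in cKO brain.

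Igsf1 (ENSMUSG00000031111, chromosome X) was the gene of the set with the largest group difference. It stood at 28.9, 21.9, 27.5 and 22.6 CPM in cKO replicates 1 to 4, against 18.1, 14.5, 20.7 and 15.2 CPM in control replicates 1 to 4. The groups did not overlap, but the lowest cKO library lay only 1.29 CPM above the highest control library. These levels rest on 400, 435, 547 and 415 reads in cKO and on 296, 228, 388 and 303 reads in control libraries. The means were 25.2 ± 3.50 CPM in cKO and 17.1 ± 2.82 CPM in control brain (SD, n = 4 each), a fitted 1.47-fold difference or 0.55 on the log2 scale (SE 0.12). Of all genes tested, 1.57% had every cKO library above every control library, and nothing is read from this share because the gene was chosen by it. The log2 difference was 0.48 without cKO replicate 1, 0.51 without cKO replicate 1 and control replicate 1, and 0.55 with offsets for GC content. Leaving out a library cannot turn this difference, because the gene was chosen for groups that do not overlap. In bulk RNA, more cells that express the gene and more RNA per cell cannot be told apart. The counts are per gene, so transcript forms of Igsf1 are not separated.

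**Figure D1:**
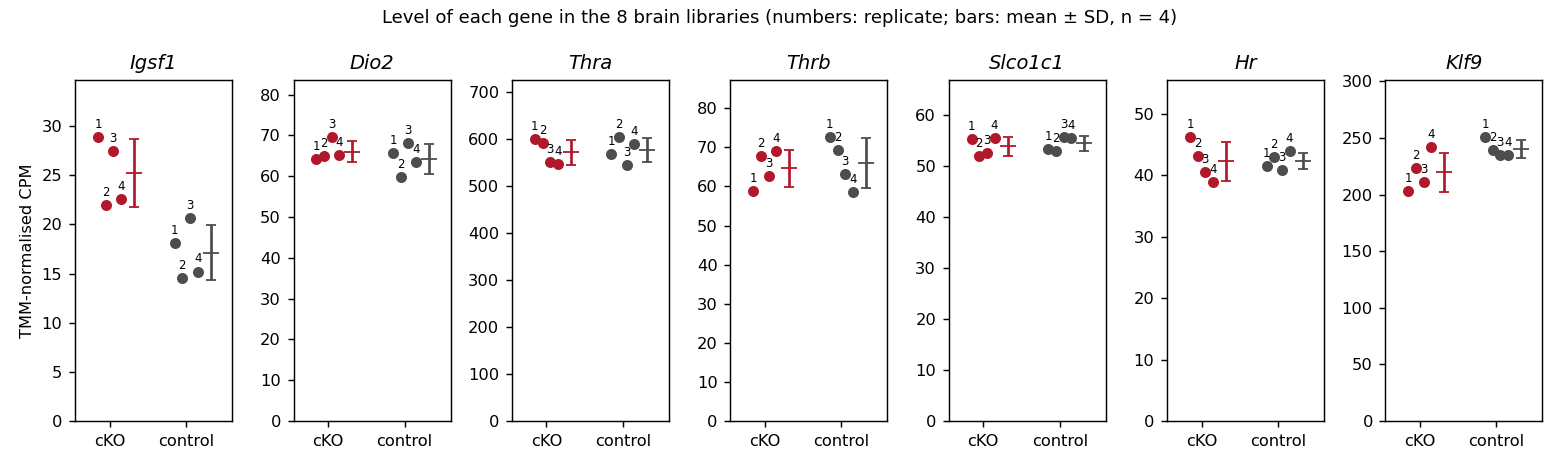
Level of each of the 7 genes in TMM-normalised CPM (y axis, from 0) in the cKO libraries (red, left) and control libraries (grey, right). Points are libraries numbered by replicate and bars are mean ± SD (n = 4). Igsf1 lay at 21.9 to 28.9 CPM in cKO and 14.5 to 20.7 CPM in control brain, while the groups of the other 6 genes overlapped.

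None of the other 6 genes passed the edgeR test over all genes (adjusted p from 0.889 to 0.994), where the share of all genes that passed was 0.0239%. Their log2 fold changes ran from -0.13 for Klf9 to 0.04 for Dio2, and in all 6 the cKO and control libraries overlapped. The lower 95% bounds reached at most a 0.839-fold level (Klf9) and the upper bounds at most a 1.13-fold level (Dio2), in RNA of the whole sample. All 6 intervals also lay within a change of 1.5-fold in every edgeR alternative, the fits with a library left out included. A smaller change, or a larger one confined to some cells, is not addressed by these intervals.

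Slco1c1 (ENSMUSG00000030235, chromosome 6) encodes a T4 transporter of brain endothelium and astrocytes. It was the steadiest gene of the set, at 55.4, 52.0, 52.7 and 55.7 CPM in cKO and 53.5, 53.1, 55.9 and 55.7 CPM in control libraries. The libraries of both groups share 1 narrow range, with a log2 difference of -0.02 (95% interval -0.14 to 0.11, SE 0.062) and an adjusted p of 0.973 in edgeR. Its spread, 3.41% of the mean in cKO and 2.67% in control brain, was close to the counting error alone (3.22% in each group). Endothelial markers, summed over 6 genes, stood at 240 to 273 CPM in cKO and 262 to 276 CPM in control libraries, and their part in the Slco1c1 values was not tested.

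Dio2 (ENSMUSG00000007682, chromosome 12) encodes the type 2 deiodinase, which makes T3 from T4 in astrocytes and in tanycytes, the glia that line the third ventricle. It stood at 64.1, 64.9, 69.7 and 65.2 CPM in cKO and 65.6, 59.7, 68.2 and 63.5 CPM in control libraries. Replicate 3 was the highest in each group, and the cKO libraries lay inside or just above the control range. Its log2 fold change was 0.04 (SE 0.063, 95% interval -0.09 to 0.17, edgeR adjusted p 0.933). A long noncoding RNA gene, Gm26512, shares 100 exon bases with Dio2 (1.72% of its exon length, GENCODE M21) and held 186 reads over the 8 libraries. Among 7 astrocyte markers, the water channel gene Aqp4 rose (log2 fold change 0.46, edgeR adjusted p 0.0104) and no other passed. The others went both ways, at 0.33 for Gfap, 0.06 for Gja1, 0.05 for Aldh1l1, -0.02 for Aldoc, -0.08 for Slc1a3 and -0.20 for Slc1a2. The Aqp4 call was lost in 5 of 8 fits with 1 library left out (adjusted p 0.0621 to 0.159), those without control replicate 2 or 4 or cKO replicate 2, 3 or 4. The summed level of the 7 markers was 3971 to 4507 CPM in cKO and 4346 to 5046 CPM in control libraries. Slc1a2 alone held 2383 CPM of the mean sum of 4326 CPM in cKO brain. The part of astrocytes in the Dio2 values was not tested.

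Dio2 transcription is known to be induced by cAMP, which acts through PKA on the factor CREB at cAMP response elements (TGACGTCA). Upstream sequences are therefore shown for Dio2, for Igsf1 as the gene the set was built on, and for the target gene Klf9. They come from RefSeq (GRCm38.p6), which is an older build than the GRCm39 build named for the counts. Windows were matched for 5 of the 7 genes (8 windows, as Igsf1 has 3 and Thrb has 2), and Thra and Hr had no entry. The 250 bases before each start are printed 5′ to 3′ on the strand of the gene, at chrX:49797746-49797995 (minus strand) for Igsf1, chr12:90739039-90739288 (minus strand) for Dio2 and chr19:23140976-23141225 (plus strand) for Klf9. Capitals mark the full element, its core TGACG on either strand (CGTCA where it lies on the opposite strand) and TATAAA.
Igsf1: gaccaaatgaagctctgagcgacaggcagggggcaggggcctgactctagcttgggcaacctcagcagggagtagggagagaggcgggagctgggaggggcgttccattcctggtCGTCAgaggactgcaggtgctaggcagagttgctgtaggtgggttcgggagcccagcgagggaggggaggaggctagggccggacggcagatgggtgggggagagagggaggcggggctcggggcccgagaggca
Dio2: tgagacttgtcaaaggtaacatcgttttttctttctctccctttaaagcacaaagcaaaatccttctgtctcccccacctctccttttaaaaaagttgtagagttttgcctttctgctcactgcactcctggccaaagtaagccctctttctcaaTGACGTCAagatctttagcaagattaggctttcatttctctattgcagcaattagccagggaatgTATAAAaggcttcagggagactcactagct
Klf9: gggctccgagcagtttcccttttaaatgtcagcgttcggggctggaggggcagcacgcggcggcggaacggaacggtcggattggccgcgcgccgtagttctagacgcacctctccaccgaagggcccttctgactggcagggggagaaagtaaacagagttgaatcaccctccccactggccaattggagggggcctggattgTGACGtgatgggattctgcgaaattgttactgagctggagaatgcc

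Dio2 was the 1 gene of the 5 with the full element, from -95 to -88 relative to the start, ahead of TATAAA from -30 to -25. The core overlaps the full element on both strands there, and without it the core also lay in Klf9 from -46 to -42, in Thrb from -56 to -52 and, on the opposite strand, in Igsf1 from -135 to -131. Of 32851 upstream windows of the same length, 1.55% hold TGACGTCA, 17.8% hold TGACG and 12.4% hold TATAAA on either strand. The receptor motif AGGTCA lay in another Igsf1 window and in Thrb, against 14.0% of all windows. These are matches of letters only.

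Thra (ENSMUSG00000058756, chromosome 11) encodes the main thyroid hormone receptor of brain and also, by splicing, a form that does not bind the hormone, which gene counts do not separate. It was the most abundant gene of the set, at 598, 590, 550 and 546 CPM in cKO and 568, 605, 544 and 589 CPM in control libraries. The groups covered the same range, with a log2 difference of -0.01 (95% interval -0.13 to 0.10, SE 0.056) and an adjusted p of 0.976 in edgeR. In the GENCODE M21 annotation (GRCm38), Thra shares 263 exon bases with Nr1d1 on the opposite strand, 5.70% of its exon length. The strand setting of the counts is not given. Reads from the shared stretch may have gone to Thra, to Nr1d1 or to the ambiguous reads that each file sets aside (5.14% to 10.1% of listed reads). Nr1d1, a clock-regulated repressor gene, stood at 89.7 ± 9.65 CPM in cKO and 86.3 ± 6.21 CPM in control brain.

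Thrb (ENSMUSG00000021779, chromosome 14), the gene of the second receptor, stood at 58.9, 67.7, 62.7 and 69.1 CPM in cKO and 72.8, 69.3, 63.2 and 58.6 CPM in control libraries. Each group spans nearly the whole range of the other, with a log2 difference of -0.03 (95% interval -0.18 to 0.13, SE 0.075) and an adjusted p of 0.964 in edgeR. Per kilobase of exon, Thra exceeded Thrb 14.3 ± 1.5 times in cKO and 14.1 ± 1.49 times in control brain (SD, n = 4 each), and the ranges of this ratio overlapped.

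Hr (ENSMUSG00000022096, chromosome 14) encodes a corepressor of these receptors whose own gene is induced by T3 in brain. It stood at 46.3, 43.2, 40.6 and 39.0 CPM in cKO and 41.6, 43.0, 40.9 and 43.9 CPM in control libraries. The cKO libraries lay on both sides of the control range, with a log2 difference of -0.01 (95% interval -0.15 to 0.14, SE 0.071) and an adjusted p of 0.994 in edgeR.

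Klf9 (ENSMUSG00000033863, chromosome 19) encodes a zinc finger transcription factor that T3 induces in neurons and oligodendrocyte precursors, and it is also induced by glucocorticoids. It stood at 203, 223, 211 and 242 CPM in cKO and 251, 240, 235 and 235 CPM in control libraries. In cKO brain 3 of 4 libraries lay below all controls, while cKO replicate 4 lay within the control range. The log2 fold change of -0.13 (SE 0.060) had an edgeR adjusted p of 0.889 and an unadjusted p of 0.0484, which made it 1 of 6 genes under 0.05 unadjusted, where 4.78% of all genes were. Its log2 difference shrank to -0.09 when cKO replicate 1 was left out and to -0.07 when control replicate 1 was left out as well. In 10 of 18 alternatives none of the 6 genes had an unadjusted p under 0.05.

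Between the genes, levels were compared per kilobase of exon. In cKO brain the order was Thra (124 CPM per kb), Klf9 (45.7), Dio2 (11.3), Slco1c1 (10.4), Thrb (8.73), Hr (6.11) and Igsf1 (4.37), and no neighbours in it overlapped between libraries. In control brain the order was the same, from 125 CPM per kb for Thra and 49.9 for Klf9 to 6.12 for Hr and 2.97 for Igsf1. There the ranges of Dio2 (10.3 to 11.7 CPM per kb) and Slco1c1 (10.2 to 10.8 CPM per kb) overlapped. Igsf1 was thus the lowest of the 7 in each group, although its cKO level was higher.

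**Figure D2:**
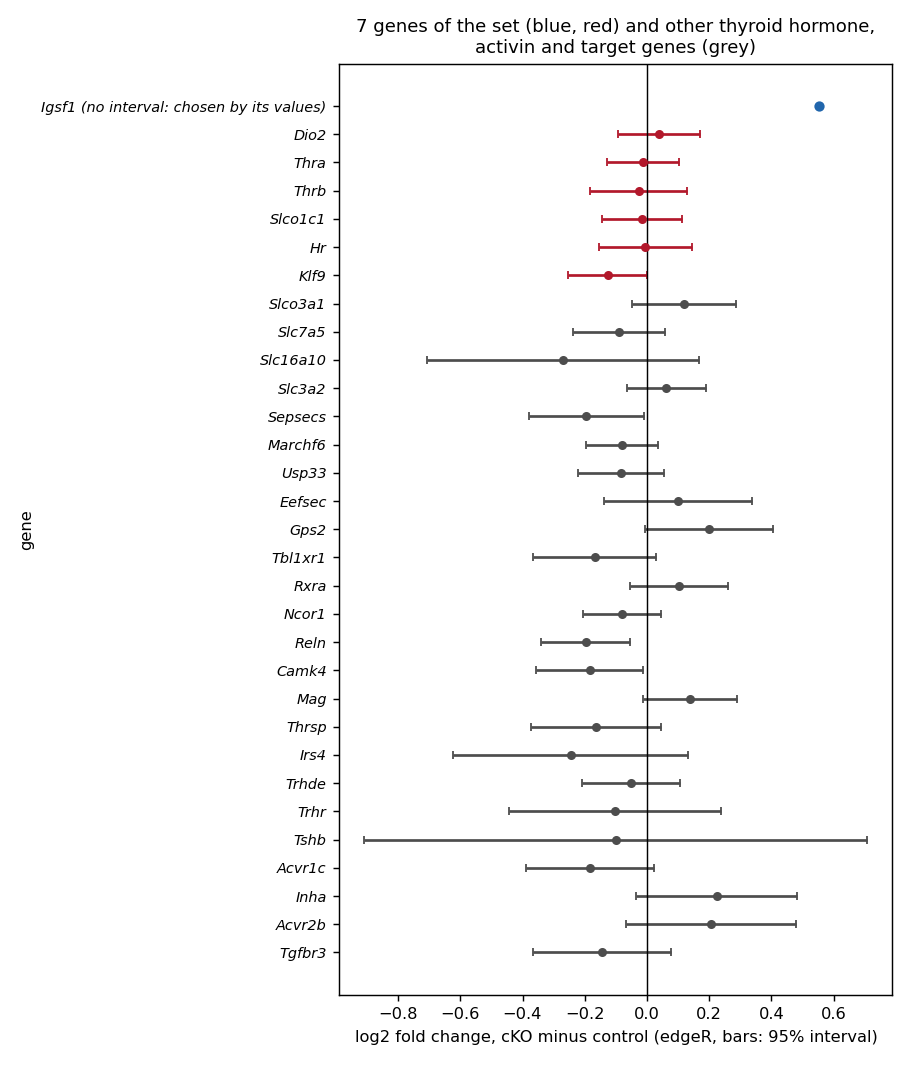
Log2 fold change (x axis, cKO minus control) of Igsf1 (blue, no interval because its values chose the set), of the other 6 genes of the set (red) and of named genes of the pathway lists (grey), with 95% intervals from edgeR. Igsf1 stood at 0.55, the 6 others between -0.13 and 0.04, and no gene shown in red or grey passed the adjusted test.

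The wider pathway was read from 6 lists written from general knowledge, with 77 genes besides Igsf1, of which 74 were tested. By edgeR 0 of the 74 passed the adjusted threshold, as did 0 in DESeq2 and limma voom. The share of all genes that passed by edgeR was 0.0239%, so 0 of 74 is near it. Of the 74, 4 had an unadjusted edgeR p under 0.05, all lower in cKO brain. This is 5.41% of the genes, against 4.78% of all genes tested, of which 2.87% were higher and 1.91% lower. Their median log2 fold change was -0.04, against 0.00337 for all genes. Of the 24 list genes named here besides the set, 16 moved by over 1.5 times or turned sign when control replicate 1, cKO replicate 1 or both were left out, and 19 lay closer to 0 without both. These genes were named for the lowest p in their lists over all libraries, so some shrinking follows from that choice. The same counts were not made for the other libraries. Leaving out control replicate 1 brought the unadjusted count to 1 and the median to -0.0051, leaving out cKO replicate 1 brought the count to 2 and leaving out cKO replicate 4 to 7, and it was 8 with no low-count filter.

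Of the 10 transport and carrier genes, 3 had positive and 7 negative log2 fold changes (median -0.05). None had an unadjusted edgeR p under 0.05, against 4.78% of all genes tested. Slco3a1, an organic anion transporter gene, stood at 0.12 (SE 0.080), or 0.06 without cKO replicate 1. Slc7a5 and Slc3a2, which encode the chains of an amino acid transporter that also carries thyroid hormone, stood at -0.09 (SE 0.071) and 0.06 (SE 0.061). Slc16a10, for a T3 and aromatic amino acid transporter, was low, at 2.57 ± 0.316 CPM in cKO and 3.09 ± 0.750 CPM in control brain. Ttr, the T4 carrier made by the choroid plexus, stood at 479 ± 97.1 CPM in cKO and 498 ± 77.4 CPM in control brain.

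Among 9 tested genes of deiodination, 1 had an unadjusted p under 0.05 (11.1%, against 4.78% of all genes tested). This was Sepsecs, which makes the selenocysteine transfer RNA that deiodinases need, at 15.2, 14.9, 17.4 and 17.2 CPM in cKO and 18.2, 17.96, 19.3 and 18.8 CPM in control libraries. All cKO libraries lay below all controls, as in 1.39% of all genes, but the log2 fold change of -0.20 (SE 0.089) had an edgeR adjusted p of 0.889. Marchf6, a ubiquitin ligase gene for the type 2 deiodinase, also had all cKO libraries below the controls, at 320 ± 9.13 CPM in cKO and 339 ± 18.8 CPM in control brain (log2 fold change -0.08, SE 0.055). Its difference was -0.04 without control replicate 1, its outlying library, and -0.02 without cKO replicate 1 as well. Usp33, for an enzyme that removes ubiquitin from the deiodinase, stood at -0.08 and at -0.02 without control replicate 1, and Eefsec, the elongation factor for selenocysteine, at 0.10. Dio3, whose product inactivates T3, was low, at 2.65 ± 0.178 CPM in cKO and 2.82 ± 0.50 CPM in control brain.

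The 16 genes of receptors and coregulators had 5 positive and 11 negative values (median -0.04). None had an unadjusted edgeR p under 0.05, against 4.78% of all genes tested. Rxra, a dimer partner of the receptors, stood at 0.10 (SE 0.075). The corepressor complex genes Ncor1, Tbl1xr1 and Gps2 stood at -0.08 (SE 0.060), -0.17 (SE 0.094) and 0.20 (SE 0.098). Without control replicate 1 and cKO replicate 1 they stood at -0.00081, -0.02 and 0.12, and Rxra at 0.03.

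**Figure D3:**
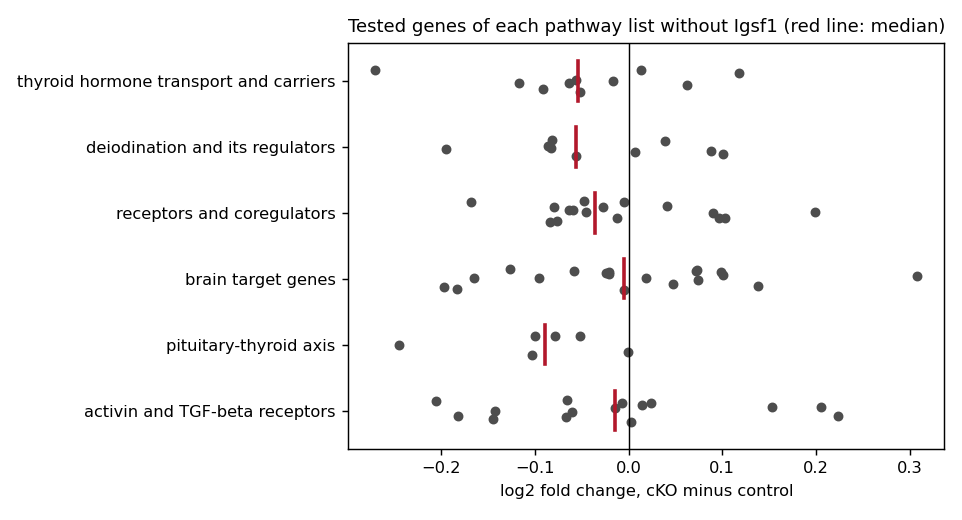
Log2 fold change (x axis, cKO minus control) of each tested gene in the 6 pathway lists, without Igsf1. Points are genes and red lines are medians, which lie between -0.09 and -0.01.

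Whether targets of T3 moved with Igsf1 was read from known T3-responsive brain genes. Of these, 0 of 19 tested passed the edgeR threshold, near the 0.0239% of all genes that did. They split into 9 positive and 10 negative values with a median of -0.01 (-0.02 to 0.05 over the alternatives), and 3 had an unadjusted p under 0.05, all lower in cKO brain: Reln, Camk4 and Klf9. This is 15.8% of the 19, against 4.78% of all genes tested, with 1.91% of all genes tested lower. Reln, for an extracellular matrix protein that guides neuron placement, stood at 75.3, 73.8, 73.2 and 76.2 CPM in cKO and 98.5, 80.8, 80.4 and 82.5 CPM in control libraries. All cKO libraries lay below the controls, as in 1.39% of all genes. The log2 difference of Reln was -0.20 (SE 0.068), with an adjusted p of 0.889 in edgeR. Camk4, for a calcium-dependent kinase, stood at 64.9 ± 4.59 CPM in cKO and 73.9 ± 9.97 CPM in control brain (log2 fold change -0.18, SE 0.082). The Reln difference was -0.12 and the Camk4 difference -0.08 without control replicate 1, and Camk4 was at -0.04 without cKO replicate 1 as well. Without control replicate 1, the highest library for Reln and Camk4, 0 of the 19 had an unadjusted p under 0.05, and without cKO replicate 1 there was 1. Mag, a myelin protein gene, stood at 0.14 (SE 0.072), or 0.04 without both of these libraries, and Thrsp, a lipogenic target gene, at -0.16 (SE 0.10). The summed level of 6 oligodendrocyte markers, 4 of which are in this list, was 4689 to 5427 CPM in cKO and 4915 to 5916 CPM in control libraries.

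In the pituitary-thyroid axis, all 6 tested genes besides Igsf1 had negative values (median -0.09), from -0.24 for Irs4 to -0.0011 for Trh. Over all genes tested, 8588 had positive and 8178 negative values. None of the 6 had an unadjusted edgeR p under 0.05, against 4.78% of all genes tested. The median of the 6 was -0.02 without control replicate 1 and -0.16 without cKO replicate 4, and Trhr and Tshb turned positive when some libraries were left out. Trh, the hypothalamic releasing hormone gene, was at 8.41 ± 0.842 CPM in cKO and 8.41 ± 0.749 CPM in control brain. Trhr, its receptor gene, stood at -0.10 (SE 0.16), Trhde, for an enzyme that degrades the hormone, at -0.05 (SE 0.076), and Irs4, another X-linked gene tied to central hypothyroidism in humans, at -0.24 (SE 0.18). Tshb, for the thyrotropin beta chain, was low, at 0.990 ± 0.417 CPM in cKO and 1.06 ± 0.610 CPM in control brain. IGSF1 was also once described as a binding protein of inhibin, so receptors and ligands of the activin and TGF-beta family were listed. Of these 15 genes, 6 had positive and 9 negative values (median -0.01), and none had an unadjusted edgeR p under 0.05, against 4.78% of all genes tested. The inhibin alpha gene Inha stood at 0.22 (SE 0.12), and the receptor genes Acvr2b, Acvr1c and Tgfbr3 at 0.21 (SE 0.13), -0.18 (SE 0.098) and -0.14 (SE 0.11). Without control replicate 1 and cKO replicate 1, Inha was at 0.04 and Acvr1c at -0.03.

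Markers of the tissues where Igsf1 is best known overlapped between the groups. The 8 hypothalamic neuron markers summed to 34.0 to 47.5 CPM in cKO and 37.9 to 46.6 CPM in control libraries. The 8 anterior pituitary markers summed to 3.22 to 9.41 CPM in cKO and 1.59 to 5.91 CPM in control libraries, with means of 6.73 CPM in cKO and 4.14 CPM in control brain, and 2 of these 8 genes passed the low-count filter. One of them, the hormone precursor gene Pomc, stood at 7.74, 1.41, 2.66 and 1.36 CPM in cKO and 3.67, 0.764, 2.77 and 1.30 CPM in control libraries, and was high in replicates 1 and 3 of both groups. Gh, the growth hormone gene, stood at 0.507, 2.62, 0 and 4.89 CPM in cKO and 0, 0, 0.532 and 2.11 CPM in control libraries. Prl, the prolactin gene, stood at 0.145, 0.605, 0 and 0.652 CPM in cKO and 0, 0, 0.479 and 0.502 CPM in control libraries. Neither passed the low-count filter, and neither showed the pattern of Pomc. The pituitary factor gene Pou1f1 and the gonadotropin gene Lhb held 0 reads in all 8 libraries, which allows up to 0.150 CPM in the deepest and 0.217 CPM in the shallowest library, for counting error only. The summed level of 7 neuron markers was 6939 to 7391 CPM in cKO and 7120 to 7942 CPM in control libraries. The part of these tissues in the Igsf1 values was not tested.

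Within the groups, Igsf1 varied more between libraries than any other gene of the set. Its spread was 13.9% of the mean in cKO and 16.5% in control brain, against a counting error of 4.72% in cKO and 5.74% in control brain. The other 6 genes spread by 3.41% to 7.86% in cKO and 2.67% to 9.57% in control brain. In both groups, replicates 1 and 3 of Igsf1 lay above replicates 2 and 4, a pattern shown by 2.77% of genes with a mean of at least 1 CPM and by none of the other 6 genes.

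Likeness to Igsf1 was measured as Pearson's r between deviations from the group means over the 8 libraries, so that the group difference played no part, and it is a description without a test. Over 15255 genes r had a median of -0.01, with quartiles at -0.30 and 0.30. Dio2 was the most alike of the 6, with r = 0.69 (4.01% of genes were higher), 0.51 without control replicate 3 and 0.95 without cKO replicate 1. Slco1c1 had 0.31, Hr 0.01, Thrb -0.34, Thra -0.44 and Klf9 -0.50. The negative values each came from 1 group, the control libraries for Thra and the cKO libraries for Thrb and Klf9. The value of Dio2 also came mostly from the control libraries. Its deviations multiplied by those of Igsf1 summed to 0.053 in control and 0.0088 in cKO libraries. Leaving out 1 library brought Thra to -0.13 (without control replicate 3) and Thrb to -0.14 (without cKO replicate 1). The 8 libraries fall into 2 groups of 4, and 4 libraries are too few to test a relation within a group. Of the axis genes, Irs4 followed Igsf1 most closely within the groups, with r = 0.95 (rank 14 of 15255), and was singled out after its value was seen. Irs4 stood at 9.84, 6.41, 9.85 and 6.74 CPM in cKO and 9.68, 8.53, 13.1 and 7.38 CPM in control libraries, so that its groups overlapped where those of Igsf1 did not. Among summed marker lists, r to Igsf1 was 0.58 for oligodendrocytes, 0.54 for tanycytes, 0.50 for hypothalamic neurons and 0.38 for the anterior pituitary. It was 0.19 for leptomeninges, 0.16 for endothelial cells, 0.06 for astrocytes, -0.01 for choroid plexus and -0.38 for neurons. Pomc by itself had r = 0.87 (rank 74), and Tshb, the other tested pituitary marker, had 0.08. Of the mean tanycyte sum of 121 CPM in cKO brain, Lhx2 held 54.2, Vim 35.3 and Rax 0.079 CPM. The part of these cell types in the Igsf1 pattern was not tested.

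The 5 genes most like Igsf1 by this measure were Tmem255a (0.98), Daxx, Ptch1, Ccndbp1 and Evi2a (0.97 each). Of 15255 genes, 44 had r of at least 0.9 and 27 had r of at most -0.9. Tmem255a, an X-linked transmembrane protein gene, stood at 55.6, 47.9, 55.6 and 48.4 CPM in cKO and 51.6, 44.1, 56.5 and 48.1 CPM in control libraries. Ptch1, the Hedgehog receptor gene, stood at 89.9, 75.8, 84.9 and 78.6 CPM in cKO and 85.4, 76.5, 88.3 and 79.1 CPM in control libraries. All 5 share the pattern of high replicates 1 and 3, which largely follows from their choice by r. Tmem255a and Ptch1 overlapped between the groups where Igsf1 did not.

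**Figure D4:**
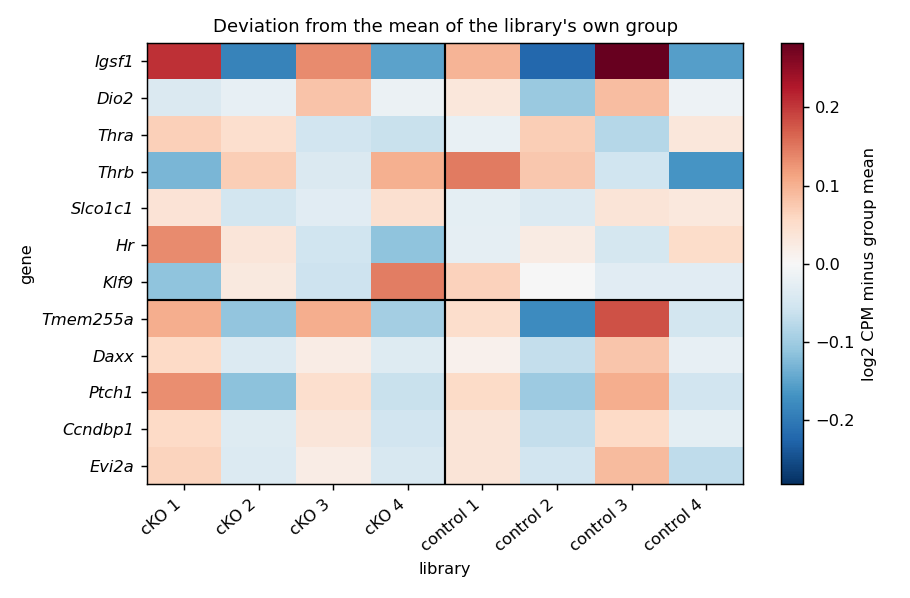
Deviation of log2 CPM from the mean of the library's own group (colour scale) for the 7 genes (above the line) and the 5 genes most like Igsf1 (below it), with cKO libraries left of the vertical line and control libraries right of it. Igsf1 and the 5 genes below are high in replicates 1 and 3 of both groups, and Thra and Klf9 do not follow them.

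**Figure D5:**
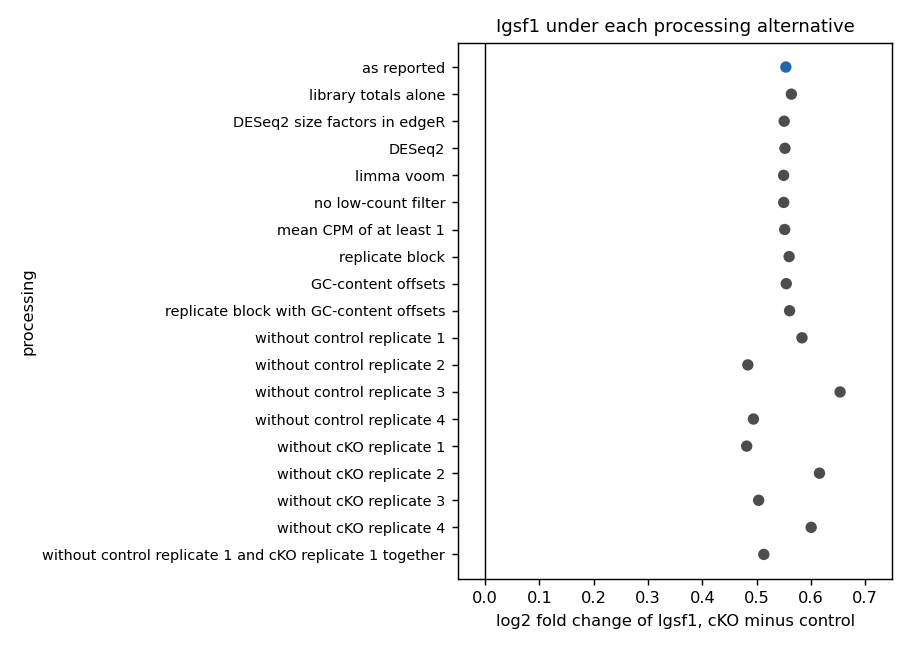
Log2 fold change of Igsf1 (x axis, cKO minus control) as reported (blue) and under each of 18 processing alternatives (grey), 1 row each. All values lie between 0.48 and 0.65, as a description with no test.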

How the data were processed

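RNA was sequenced from mouse brain in 8 libraries, whose groups and replicate numbers come from their titles. The submitters' processing notes name HISAT2 and the GRCm39 build, while the counter, its annotation and its strand setting were not given in the sources used here. As deposited, each file holds raw read counts per gene of 1 library, without normalization. The 5 entries of each file that name no gene (36.2% of listed reads in cKO replicate 1, 20.3% to 26.3% in the other libraries) stayed out of totals and tests. Symbols were matched for 51880 of 57186 identifiers.

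Genes were filtered with filterByExpr, scaled by TMM and compared by the quasi-likelihood test of edgeR 4.0.16 (R 4.3.3), with Benjamini-Hochberg adjustment over 16766 genes and a threshold of 0.05. The fit was tested on simulated data, with 72% of 100 genes changed 1.5-fold and 87% of 100 genes changed 2-fold called, and 9 unchanged genes called besides. Far more genes were changed in the simulation than passed in the real data, so the Benjamini-Hochberg cutoff was looser there. These shares therefore do not measure how often such changes would be called in the real data. CPM per kb used the union of exons in GENCODE M21. The labels do not say whether replicate numbers pair the libraries. Same-numbered deviations correlated between -0.0055 and 0.053 over all genes compared, which does not settle a pairing that moves few genes. The genes of the set and the lists were chosen with earlier results of these data known. Akap11, the members, up to 4 genes per list with the lowest p and the 5 most alike genes are named. Ttr, Dio3, Trh, Nr1d1, Pomc, Gh, Prl, Pou1f1, Lhb, the astrocyte markers and the tanycyte markers Lhx2, Vim and Rax are named besides. DESeq2 1.42.0 and limma voom 3.58.1 were among the alternatives.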

Additional observations from a re-analysis of the deposited data

Results flagged for a closer look

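In 4 of 64 groups of 4 libraries, 1 library stood far from the other 3, where chance flags about 1 group in 20. In control replicate 1, Marchf6 stood at 367 CPM (others 328 to 333), Ncor1 at 317 CPM (others 276 to 283) and Reln at 98.5 CPM (others 80.4 to 82.5). In control replicate 3, Tshb stood at 1.97 CPM (others 0.653 to 0.828). None of the 7 genes of the set was among them. The Reln difference was -0.12 on the log2 scale without control replicate 1.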

How the results depend on the processing

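The 6 genes besides Igsf1 and the 74 listed genes gave 0 calls in each of the 18 alternatives, and the log2 difference of Igsf1 ran from 0.48 to 0.65. Over all genes 4 passed; the count was 2 with limma voom, 2 with the replicate block, 7 with no low-count filter, 2 without control replicate 1 and cKO replicate 1 together, and 0 to 3 with 1 library left out. Of 31 genes with a test, 6 turned sign under some alternative. Thrb turned to 0.0077 with GC-content offsets, 0.0099 with the replicate block and GC-content offsets, and 0.066 without both control replicate 1 and cKO replicate 1. Slco1c1 turned to 0.024 in both GC fits, Hr to 0.0038 with library totals and Trhr to 0.12 without both of these libraries. With 1 library left out, values ran from -0.044 to 0.0093 for Thra, -0.085 to 0.027 for Thrb, -0.036 to 0.00071 for Slco1c1, -0.053 to 0.028 for Hr, -0.21 to 0.012 for Trhr and -0.33 to 0.39 for Tshb. The cause was not tested. Likeness to Igsf1 ran from 0.51 to 0.95 for Dio2 and from -0.57 to 0.24 for Hr. As no pairing by replicate number is stated, the block was kept as an alternative only. Genes under about 3 CPM, such as Tshb and Dio3, are limited by depth.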

Other observations

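The 3 tested genes on each side of Igsf1 on chromosome X, by their order in GENCODE M21, were looked at after the values of Igsf1 were known. None passed the edgeR test (adjusted p from 0.889 to 0.967), where 0.0239% of all genes did, and in all 6 the cKO and control libraries overlapped. On the side of lower coordinates, Rbmx2 stood at a log2 fold change of -0.22 (SE 0.16), Enox2 at 0.10 (SE 0.11) and Arhgap36 at -0.05 (SE 0.15). On the side of higher coordinates, the noncoding RNA gene Firre stood at 0.14 (SE 0.11), the kinase gene Stk26 at -0.12 (SE 0.14) and Frmd7 at -0.34 (SE 0.60). Firre was the most abundant of them, at 86.4 ± 8.10 CPM in cKO and 78.2 ± 13.6 CPM in control brain (SD, n = 4 each).

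The balance of the activating and the inactivating deiodinase was also read after the values were seen. Per kilobase of exon, Dio2 exceeded Dio3 8.72 ± 0.714 times in cKO and 8.10 ± 1.12 times in control brain (SD, n = 4 each), with ranges of 7.88 to 9.31 in cKO and 6.92 to 9.40 in control libraries that overlapped.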
